A study of Mus musculus with 8 samples.

Results

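The growth genes described here are 10 messages long known as targets of the let-7 microRNAs: the insulin-like growth factor receptor Igf1r, the insulin receptor Insr, the receptor adaptor Irs2, the transcription factor Myc, the RNA-binding protein Igf2bp2, the chromatin protein Hmga1, the D-type cyclins Ccnd1 and Ccnd2, the small GTPase Nras and the microRNA-processing enzyme Dicer1. They were chosen by name and not by a filter on their measured values, though with earlier results of these data known. Of the 10 genes 9 were among the 13439 genes of the table, and Hmga1 was not analysed here. All 9 passed the filter on low values, and each had at least 36 reads in every library. In hearts with intact Lin28a, Myc, Igf2bp2, Nras and Igf1r rose after pressure overload, 4 of 9 beside 27.9% of all genes. Of the 9 genes 0 fell, beside 14.5%, and 42.4% of all genes passed the test in either direction. In hearts labelled as lacking Lin28a in heart muscle 0 of 9 passed, where 2.53% of all genes did.

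MicroRNAs of the let-7 family bind messages through a short seed near their 5′ end and lower the stability and translation of those messages. They are abundant in adult tissues and scarce in early embryos and many tumours, and their targets include many genes of growth and cell division. Lin28a is an RNA-binding protein that attaches to the loop of let-7 precursors and blocks their maturation, so it is known to favour the expression of let-7 targets. Transverse aortic constriction (TAC) narrows the aorta, raises the load on the left ventricle and makes the heart muscle grow.

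The data are 8 RNA libraries of mouse left ventricle, in 4 groups of 2. Floxed mice, labelled Lin28afl/fl, carry Lin28a alleles flanked by recombination sites and serve as littermate controls, and mice labelled Lin28aCko are described as cardiac-specific knockouts (cKO). Each genotype had a sham operation or TAC, with TAC hearts taken at day 5. The sources used here give neither the Cre driver, nor the age of the mice, nor the day of the sham hearts. The series title names loss of Lin28a and the hypertrophy that pressure overload brings about. The labels call the libraries duplicates without saying that each came from its own animal. The spread between libraries on which p-values rest may thus be technical, at least in floxed TAC hearts. The cKO sham libraries differed in Xist and Ddx3y and so did not come from the same animal. The atrial light chain Myl7 differed between the floxed sham libraries (6.16 and 133 CPM) and between the cKO TAC libraries (4.03 and 66.2 CPM). These were unlikely to be repeats of the same RNA sample, though they may share an animal.

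Library totals were 10315902 to 21871570 reads, and levels are given as CPM, each gene's reads scaled to a common library total. A gene with no read could still be at 0.137 to 0.291 CPM (3 reads), by counting error alone. Lin28a itself was not analysed here, and the genotypes are known from the labels alone. Markers of cardiomyocytes were abundant in every library, with 67484 to 97529 CPM summed over 12 genes. Some libraries stood apart: Xist was at 44.3 CPM and the Y-linked Ddx3y at 0 CPM in the second cKO sham library, whereas the other 7 libraries had at most 0.173 CPM of Xist and at least 32.3 CPM of Ddx3y. The atrial light chain Myl7 was at 65.0 to 133 CPM in the second libraries of floxed sham, cKO sham and cKO TAC and at 0.511 to 6.16 CPM in the other 5. On the first principal component of all genes, with 72.1% of the variance, the cKO TAC libraries lay at -8.89 and 14.6, apart from each other. Results on the growth genes that change without such a library are given with and without it.

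The sequences show what the genes are thought to share. In RefSeq (GRCm38.p6), 12 of 13 mature let-7 family entries, miR-98 among them, hold the seed GAGGUAG at bases 2 to 8, and the exception, let-7j, reads GAGGUAU. Of these, 4 are printed with the seed in capitals, because the seed decides which sites can pair.
mmu-let-7a-5p: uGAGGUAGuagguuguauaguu
mmu-let-7c-5p: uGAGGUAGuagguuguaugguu
mmu-let-7g-5p: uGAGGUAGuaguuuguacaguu
mmu-miR-98-5p: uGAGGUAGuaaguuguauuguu

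Of 11 let-7 hairpins with both arms in RefSeq, 8 hold the letters GGAG, a known contact of Lin28 proteins, between the arms and 3 do not. The hairpin of let-7a-1 (chromosome 13, 48538179 to 48538272, minus strand) has them, in capitals, and the hairpin of let-7b (chromosome 15, 85707319 to 85707403, plus strand) does not.
Mirlet7a-1: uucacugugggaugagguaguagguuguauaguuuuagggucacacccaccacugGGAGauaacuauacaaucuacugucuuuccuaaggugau
Mirlet7b: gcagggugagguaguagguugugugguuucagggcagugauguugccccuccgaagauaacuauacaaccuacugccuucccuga
The libraries hold messenger RNA, and mature let-7 was not measured in them.

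Matches to the let-7 seed were searched on the sense strand of the longest 3′ UTR of each gene in GENCODE M21 (mm10): CTACCTCA (an 8mer), CTACCTC (7mer-m8) and TACCTCA (7mer-A1), with the longest form counted where they overlap. Of 12022 tested genes with a 3′ UTR, 17.2% held at least 1 match and 3.68% an 8mer. Among the 9 genes 7 held a match, 14 matches in all, and Igf2bp2, Igf1r, Insr and Irs2 each held 1 8mer. The 8mers of these 4 genes, the 7mer next to that of Igf2bp2 and both matches in Nras are printed below. Each is given as 22 bases, 5′ to 3′, with the seed match in capitals. These are letters by which let-7 could pair with the genes named, whether or not their levels changed.
Igf2bp2 (chr16:22059473-22059494, minus strand): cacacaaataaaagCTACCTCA
Igf2bp2 (chr16:22059457-22059478, minus strand): acctcaggtgtttttTACCTCA
Igf1r (chr7:68229111-68229132, plus strand): tttcaaacatttatCTACCTCA
Insr (chr8:3153198-3153219, minus strand): cttctcagtacagtCTACCTCA
Irs2 (chr8:10986528-10986549, minus strand): aaactaccacagtcCTACCTCA
Nras (chr3:103064360-103064381, plus strand): cctcttcagaataaCTACCTCc
Nras (chr3:103066917-103066938, plus strand): agtgaaggtctgcttTACCTCA

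The remaining 3′ UTR matches were shorter ones: 2 further 7mers in Igf1r, 1 in Insr, 1 in Ccnd1 and 3 in Ccnd2. Myc, with a 3′ UTR of 466 bases, and Dicer1, with one of 3851 bases, held none. In the coding sequence Dicer1 held 5 matches, 3 of them 8mers, which are shown because the gene has none in its 3′ UTR.
Dicer1 (chr12:104702804-104702825, minus strand): acctgtacaaccaaCTACCTCA
Dicer1 (chr12:104702696-104702717, minus strand): gaacgctaacacatCTACCTCA
Dicer1 (chr12:104694696-104694717, minus strand): gatgcgattttggaCTACCTCA
Igf1r, Insr and Irs2 each held 2 coding matches and Ccnd2 held 1. The genes without a printed site lie at chr15:61985391-61990374 (Myc, plus strand), chr7:144929931-144939925 (Ccnd1, minus strand) and chr6:127125162-127152193 (Ccnd2, minus strand). Myc held no match in either place, and the absence of these letters says nothing about other forms of pairing.

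TAC was first compared with sham in floxed hearts, where Lin28a is intact. By limma on log2(CPM + 1), with p-values adjusted over all genes tested by the Benjamini-Hochberg method and a threshold of 0.05, 4 of the 9 growth genes were higher and 0 lower. Across all genes tested 27.9% were higher and 14.5% lower, 42.4% in all. The median difference of the 9 genes was log2 0.37, beside 0.14 over all genes tested. Without overlap between the groups, 6 were higher and 2 lower, 8 of 9 in all, beside 46.7%, 28.9% and 75.6% of all genes. Log2 differences on this scale understate the change of genes with few reads. The all-gene median of 0.14 in this comparison is 0.00 after scaling by relative log expression (RLE), a factor per library taken from the middle of all genes.

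In cKO hearts TAC was compared with sham in the same way, and 0 of the 9 genes passed, beside 2.53% of all genes (2.09% higher and 0.442% lower). At an unadjusted p under 0.05 there was 1 gene, and edgeR and DESeq2 on the recovered reads also called 0. The median difference was log2 0.00, beside 0.02 over all genes. Without overlap, 2 of the 9 genes were higher and 0 lower, beside 23.0% and 19.9% of all genes, 42.8% in all. Between genotypes in sham hearts 0 of 9 passed, beside 0.0534% of all genes (0.0457% higher and 0.00762% lower), with 1 at an unadjusted p under 0.05 and 0 by edgeR and by DESeq2. Without overlap, 2 were higher, Myc and Nras, and 0 lower, beside 24.9% and 17.1% of all genes, 41.9% in all. Between genotypes in TAC hearts 4 of 9 were lower in cKO hearts and 0 higher, beside 16.5% and 8.39% of all genes and 24.9% in all. Their median was log2 -0.46, beside -0.10 over all genes. Without overlap, 2 were higher and 5 lower, beside 23.6% and 40.2% of all genes, 63.8% in all.

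The interaction subtracts the TAC response of floxed hearts from that of cKO hearts. Of the 9 genes 3 had a negative and 0 a positive interaction, beside 9.18% and 4.93% of all genes, 14.1% in all. Without the 3 libraries with atrial transcripts 4, 0, 0, 5 and 4 growth genes passed in the 5 comparisons, in the order given here, and without the library with Xist 4, 0, 0, 4 and 3, as with all libraries. The TAC differences in floxed and cKO hearts come from different libraries, but their p-values rest on a spread estimated from all 8 libraries. The genotype comparisons and the interaction reuse the same libraries.

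**Figure D1:**
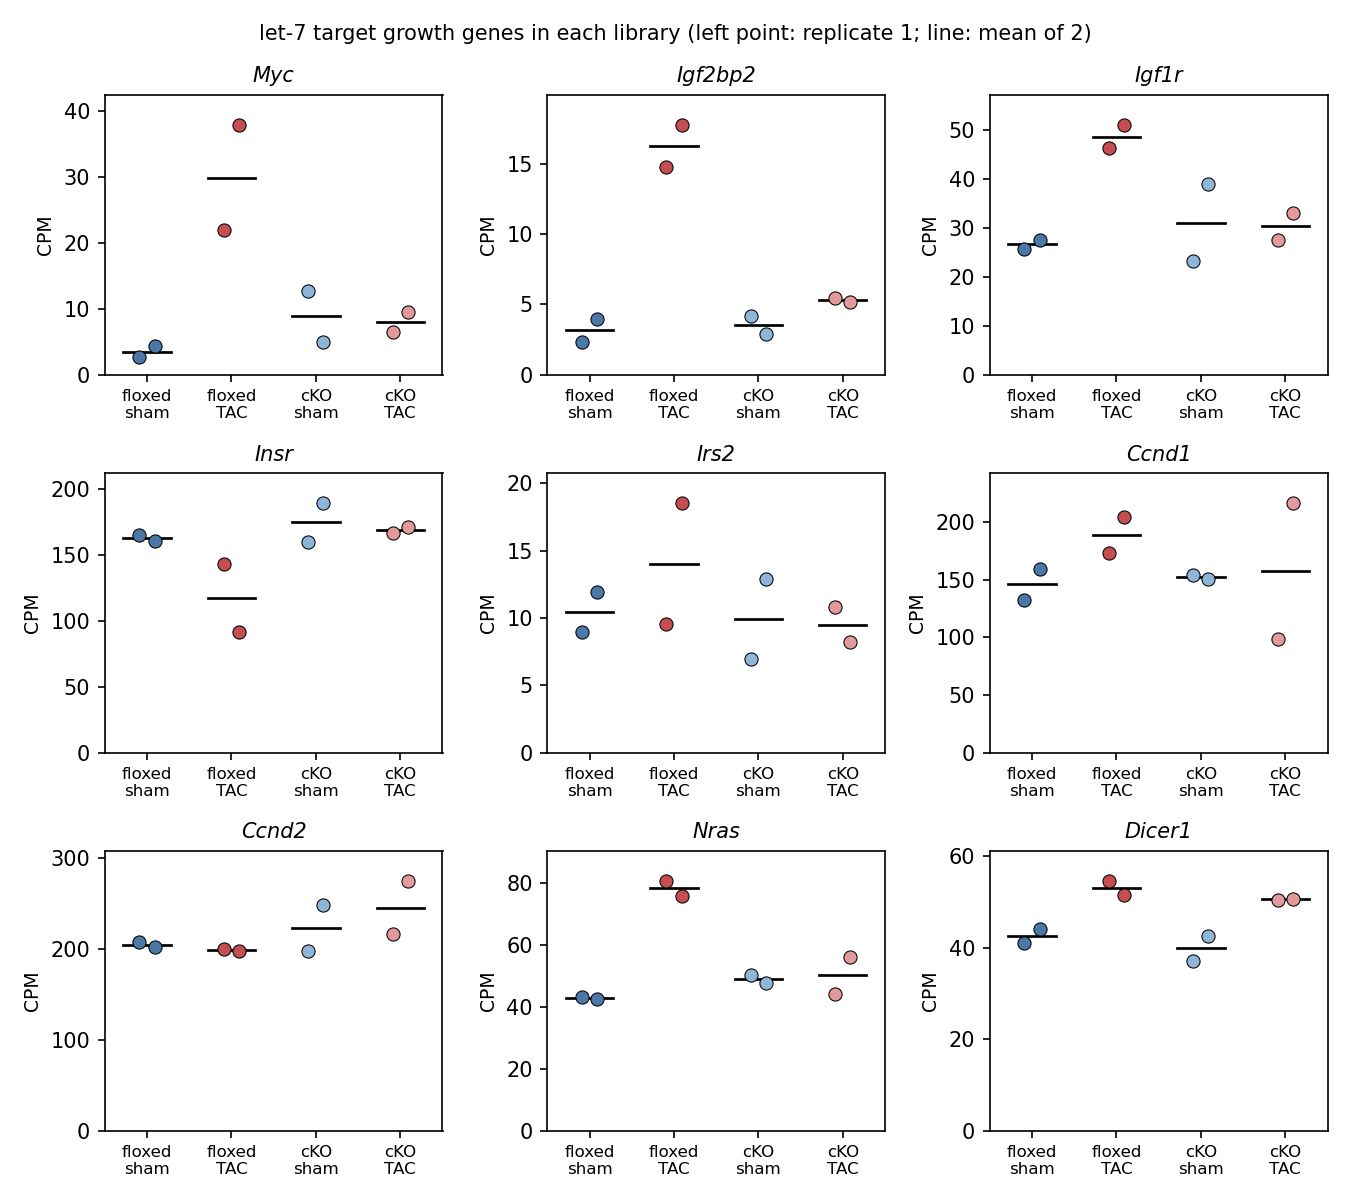
Each panel plots the CPM of 1 growth gene (linear axis from 0) in the 8 libraries, by group, with points for libraries and a line for the mean of 2. Myc, Igf2bp2, Nras and Igf1r stand highest in both floxed TAC libraries, and the 2 cKO TAC libraries of Ccnd1 lie at 98.2 and 217 CPM.

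**Figure D2:**
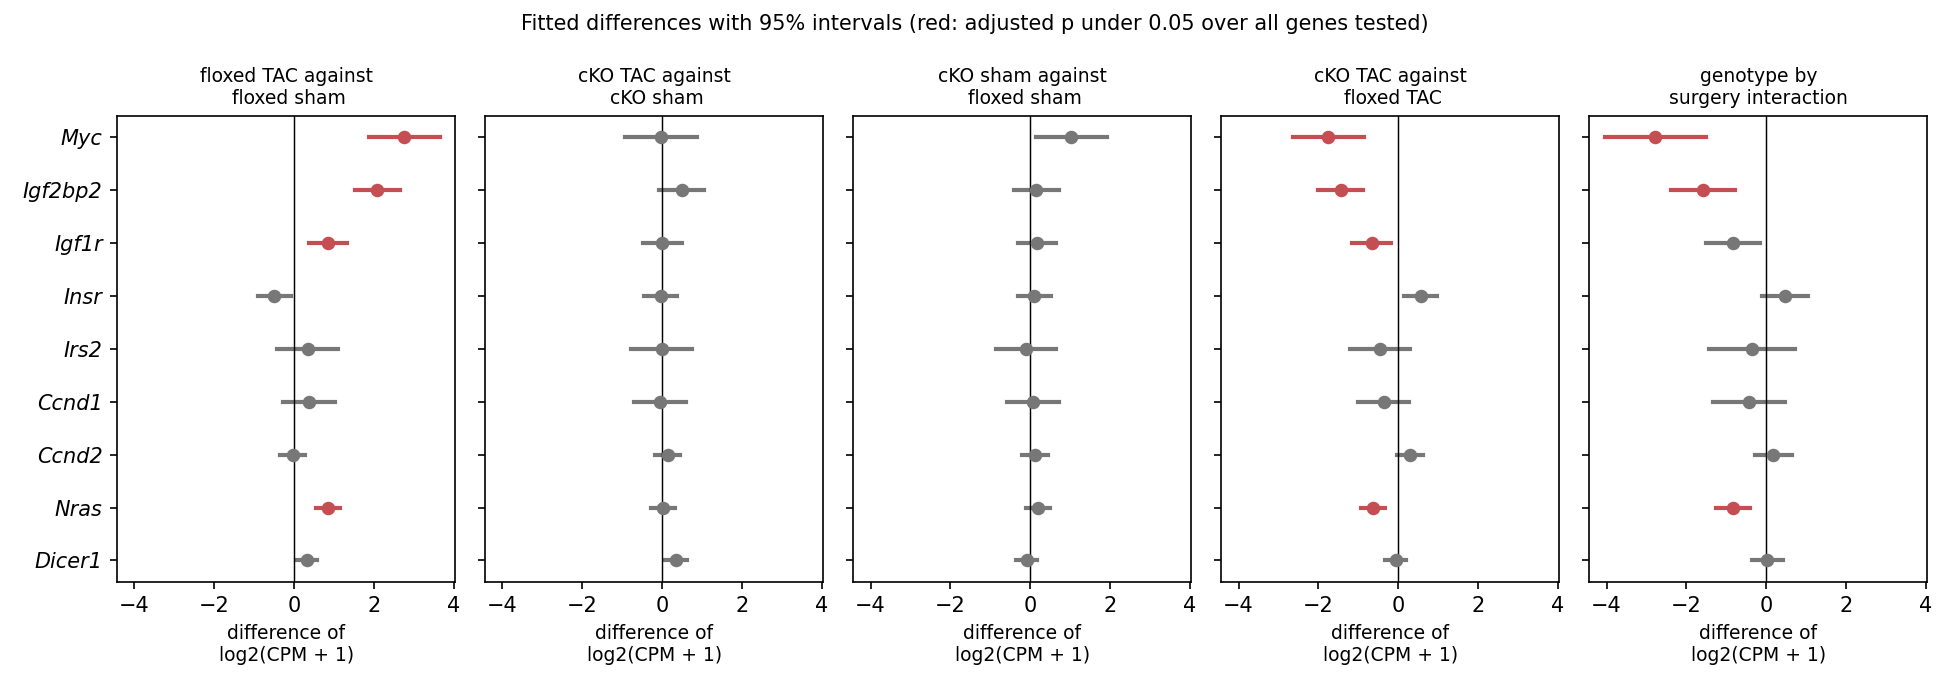
Points show the fitted difference of log2(CPM + 1) for each growth gene in 5 comparisons, with bars for 95% intervals and red for an adjusted p under 0.05. The intervals of Myc, Igf2bp2 and Nras lie above 0 for TAC in floxed hearts and below 0 for the interaction.

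Among the receptors, Igf1r, which binds insulin-like growth factors and drives growth of heart muscle, was at 25.7 and 27.5 CPM in floxed sham hearts and at 46.2 and 51.0 CPM in floxed TAC hearts. It was at 23.2 and 38.9 CPM in cKO sham hearts and at 27.6 and 33.0 CPM in cKO TAC hearts. Both floxed TAC libraries were above all others, and the cKO TAC values lay within the range of the cKO sham values. Igf1r rose 1.83-fold in mean CPM with TAC in floxed hearts (log2 0.85 ± 0.21 SE, adjusted p = 0.0105). In cKO hearts the difference was log2 0.00 (95% interval -0.48 to 0.48). Among TAC hearts it was lower in cKO than in floxed hearts (log2 -0.67 ± 0.21, adjusted p = 0.0467), and the interaction of log2 -0.84 did not pass (adjusted p = 0.0916).

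These Igf1r results lie close to the threshold. The rise in floxed hearts had an adjusted p of 0.0679 without floxed sham 1 and of 0.0706 without floxed TAC 2. The difference among TAC hearts passed in 12 of 21 alternatives. Its adjusted p was 0.0617 with RLE scaling and 0.0702 with scaling by the trimmed mean of M values (TMM), 0.0754 and 0.0752 without floxed sham 1 and 2, 0.124 and 0.203 without floxed TAC 1 and 2, and 0.215 without cKO TAC 1. Without cKO sham 1 the interaction passed (log2 -1.20, adjusted p = 0.0232).

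Insr, the insulin receptor, did not follow Igf1r. Its CPM was 165 and 160 in floxed sham hearts, 143 and 91.3 in floxed TAC hearts, 160 and 189 in cKO sham hearts and 166 and 171 in cKO TAC hearts. Floxed TAC was the group with the lowest values, with a wide gap between its 2 libraries. On the CPM scale neither the floxed TAC comparison (log2 -0.50 ± 0.18, adjusted p = 0.0503) nor the genotype comparison in TAC hearts (log2 0.56 ± 0.18, adjusted p = 0.0517) passed. With RLE scaling both did, at log2 -0.65 (adjusted p = 0.0155) and log2 0.66 (adjusted p = 0.0264). Both passed as well without floxed TAC 1, at log2 -0.82 (adjusted p = 0.0036) and log2 0.88 (adjusted p = 0.0118), and the interaction then passed too (log2 0.78, adjusted p = 0.0468).

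Irs2, which carries the signal of both receptors to PI3 kinase, was at 8.95 and 11.9 CPM in floxed sham, 9.51 and 18.5 CPM in floxed TAC, 6.98 and 12.9 CPM in cKO sham and 10.8 and 8.18 CPM in cKO TAC hearts. All 4 groups overlapped, and no comparison passed in any alternative. Of its exonic bases 162 overlap an antisense gene, and the sources used here do not say whether reads were counted by strand.

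Around the receptors, 28 other genes of insulin and IGF signalling went both ways in floxed TAC hearts: 5 were higher, 6 lower and 17 did not pass, with a median of log2 -0.07. The counts of this and the later lists stand beside the shares of all genes. These were 27.9% higher and 14.5% lower in floxed TAC hearts, and 2.09% and 0.442% in cKO TAC hearts. In cKO against floxed TAC hearts they were 8.39% and 16.5%, and for the interaction 4.93% positive and 9.18% negative. Igf1, the ligand of Igf1r, rose from a mean of 18.1 to 79.6 CPM in floxed hearts (log2 2.08 ± 0.20, adjusted p = 7e-05) and from 19.6 to 44.1 CPM in cKO hearts (log2 1.10, adjusted p = 0.0269). Its interaction was log2 -0.98 (adjusted p = 0.0498). The receptor adaptor Shc1 and the insulin receptor phosphatase Ptpn1 rose in floxed TAC hearts by log2 1.11 and 1.03, and their interactions were -0.93 and -0.75. Grb14, an inhibitor of the insulin receptor, and Slc2a4, the insulin-responsive glucose carrier, fell by 1.35 and 1.24 on the log2 scale, with interactions of 0.85 and 0.92.

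The growth kinase Mtor, its inhibitor Tsc2 and the transcription factor Foxo3 also fell in floxed TAC hearts (log2 -0.45, -0.71 and -0.88) and had positive interactions (log2 0.72, 0.60 and 1.13). Igf2, Irs1 and Igf2r did not pass in any comparison, with log2 -0.26, 0.34 and 0.18 in floxed TAC hearts. In cKO hearts Igf1 was the 1 gene of the list that passed. It did not pass without the 3 libraries with atrial transcripts (log2 0.63, adjusted p = 0.213), nor without any single library but cKO TAC 1 (adjusted p from 0.0508 without floxed sham 2 to 0.137 without cKO sham 2). In cKO against floxed TAC hearts 4 genes were higher and 4 lower, with a median of log2 0.02. That count was 2 lower without floxed TAC 1, floxed TAC 2 or cKO TAC 1, and the floxed TAC count was 3 higher without floxed sham 1 or floxed TAC 1. With RLE scaling the floxed TAC count was 4 higher and 10 lower, with a median of log2 -0.22.

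Myc, a transcription factor that drives ribosome production and cell growth, had the widest range of the 9 genes, 13.9-fold between its lowest and highest library. It was at 2.72 and 4.26 CPM (42 and 71 reads) in floxed sham hearts and at 21.9 and 38.0 CPM (480 and 817 reads) in floxed TAC hearts. In cKO hearts it was at 12.7 and 4.98 CPM after sham and at 6.45 and 9.57 CPM after TAC. Both floxed TAC libraries were above every other library, and the cKO sham and cKO TAC values overlapped.

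In mean CPM Myc was 8.57-fold higher after TAC in floxed hearts (log2 2.76 ± 0.40, adjusted p = 0.000517), and it passed in all 21 alternatives. In cKO hearts the difference was log2 -0.03 (95% interval -0.92 to 0.87), an interval wide enough to hold moderate changes in either direction. Among TAC hearts Myc was lower in cKO than in floxed hearts (log2 -1.75 ± 0.40, adjusted p = 0.0126), and the interaction was log2 -2.78 ± 0.56 (adjusted p = 0.0154). In sham hearts Myc was 2.53-fold higher in mean CPM in cKO than in floxed hearts, which did not pass (log2 1.03 ± 0.40, adjusted p = 0.603), with cKO sham 1 as the higher library.

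The comparison of TAC hearts did not pass without floxed TAC 2 (log2 -1.37, adjusted p = 0.107) or without cKO TAC 1 (adjusted p = 0.0809). The interaction of Myc did not pass without floxed sham 1 (adjusted p = 0.0733) or without floxed TAC 2 (adjusted p = 0.0628). Without cKO sham 1, the higher of the cKO sham libraries, the interaction was log2 -2.19 and the TAC difference in cKO hearts log2 0.57. Without cKO sham 2, the library with Xist, they were log2 -3.38 and -0.63.

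Genes that Myc is known to activate were read beside it. Of 16 such genes 11 rose and 1 fell in floxed TAC hearts (median log2 0.66), beside 27.9% and 14.5% of all genes. In cKO hearts 0 passed, beside 2.53% of all genes, with a median of log2 0.05 and 1 gene at an unadjusted p under 0.05. Among TAC hearts 8 were lower in cKO and 1 higher (median log2 -0.57), beside 16.5% and 8.39% of all genes. A negative interaction passed for 7, beside 9.18% of all genes, and none of these interactions passed in every alternative. The polyamine enzymes Odc1 and Srm rose in floxed hearts from 80.9 to 233 CPM (log2 1.51 ± 0.20) and from 14.5 to 35.8 CPM (log2 1.25 ± 0.19), with interactions of -1.42 and -1.11. The nucleolar proteins Nop58, Fbl and Npm1 rose by log2 0.99, 0.72 and 0.63, and their interactions were -1.12, -0.85 and -0.62. The translation helicase Eif4a1 rose by log2 1.09 and lactate dehydrogenase Ldha by 0.68, with interactions of -0.78 and -0.65. The cap-binding protein Eif4e fell (log2 -0.52), and the transferrin receptor Tfrc rose by log2 1.41 with an adjusted p of 0.0494. With RLE scaling 9 were higher and 1 lower in floxed TAC hearts. Without floxed sham 1 the floxed TAC count was 7 higher and 1 lower, and the count between TAC hearts was 4 lower without floxed TAC 1 or without cKO TAC 1 and 5 lower without floxed TAC 2.

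Of 11 partners and antagonists of Myc, 1 was higher and 3 lower in floxed TAC hearts, beside 27.9% and 14.5% of all genes. Mxd3, a repressor that competes with Myc and is made in dividing cells, rose by log2 2.68 in floxed and 1.68 in cKO hearts, the latter not without cKO sham 2 (adjusted p = 0.0583) or the 3 libraries with atrial transcripts (0.0794). Mxi1, another competitor, and Fbxw7, which marks Myc protein for breakdown, fell by 0.71 and 0.95 on the log2 scale in floxed hearts. Max, the obligate partner of Myc, and Mxd1 did not pass in any comparison (log2 -0.25 and 0.14 in floxed TAC hearts). Mxd3 and Mxi1 differed between genotypes in TAC hearts (log2 -0.98 and 0.39), and no gene of the list had an interaction that passed. The difference of Mxd3 did not pass without floxed TAC 1 (adjusted p = 0.105), floxed TAC 2 (0.0594) or cKO TAC 2 (0.0593). That of Mxi1 did not pass without floxed sham 1 (0.0734), floxed sham 2 (0.0736), floxed TAC 1 (0.142), floxed TAC 2 (0.131) or cKO TAC 1 (0.213), nor without the 3 libraries with atrial transcripts (0.0519), where Mxd3 had 0.059.

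Igf2bp2 binds messages such as those of IGF2 and of mitochondrial enzymes and is abundant in embryonic tissue. It was at 2.34 and 3.96 CPM in floxed sham hearts and at 14.8 and 17.8 CPM in floxed TAC hearts, from 36 and 66 to 323 and 383 reads. Values in cKO hearts were 4.17 and 2.92 CPM after sham and 5.46 and 5.19 CPM after TAC. The floxed TAC libraries were above all others, and in cKO hearts the TAC values were just above the sham values. Igf2bp2 rose 5.17-fold in mean CPM with TAC in floxed hearts (log2 2.08 ± 0.25, adjusted p = 0.000199), and it passed in all 21 alternatives. In cKO hearts the difference was log2 0.49 ± 0.25 (adjusted p = 0.373).

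Among TAC hearts Igf2bp2 was lower in cKO than in floxed hearts (log2 -1.45 ± 0.25, adjusted p = 0.00422), and this too passed in all 21 alternatives. The interaction was log2 -1.59 ± 0.35 (adjusted p = 0.0202). It was between log2 -1.30 and -1.88 with each library left out in turn, and it did not pass without floxed sham 1 (adjusted p = 0.0882), floxed TAC 1 (0.0572), floxed TAC 2 (0.0801) or cKO sham 1 (0.0563), nor by limma-voom (0.0514). Its paralogs Igf2bp1 and Igf2bp3 were not analysed here.

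The D-type cyclins, which start the cell cycle with Cdk4 and Cdk6, were the most abundant of the 9 genes per kilobase in floxed sham hearts, and neither passed in any comparison. Ccnd1 was at 132 and 160 CPM in floxed sham, 173 and 205 CPM in floxed TAC, 154 and 150 CPM in cKO sham and 98.2 and 217 CPM in cKO TAC hearts. The 2 cKO TAC libraries were the lowest and the highest of all 8, so the spread within that group exceeded every difference between group means. No comparison of Ccnd1 passed (log2 0.37, adjusted p = 0.328 for TAC in floxed hearts).

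Single libraries decided this for Ccnd1. Without cKO TAC 2 it was lower in cKO than in floxed TAC hearts (log2 -0.93, adjusted p = 0.00291) and its interaction passed (adjusted p = 0.00884), and without cKO TAC 1 the genotype comparison gave log2 0.20 (adjusted p = 0.45). The rise in floxed hearts passed without either one (adjusted p = 0.0364 without cKO TAC 1 and 0.0371 without cKO TAC 2). The cKO TAC 2 library is also 1 of the 3 with atrial transcripts (Myl7 at 66.2 CPM). Without those 3 libraries the difference of Ccnd1 was log2 -0.64 for TAC in cKO hearts and -0.93 between TAC hearts. Its interaction was then log2 -1.15. Of the exonic bases of Ccnd1, 1100 overlap a gene on the other strand, which was listed as Oraov1 at 8.69 to 13.2 CPM.

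Ccnd2 was at 207 and 202 CPM in floxed sham, 200 and 198 CPM in floxed TAC, 198 and 249 CPM in cKO sham and 216 and 275 CPM in cKO TAC hearts. Floxed libraries of both kinds lay between 198 and 207 CPM. The highest values were those of cKO sham 2 and cKO TAC 2, which are both among the libraries with atrial transcripts. In floxed hearts the difference was log2 -0.04 (95% interval -0.36 to 0.28). The genotype difference in TAC hearts was log2 0.29 (adjusted p = 0.167) and passed with RLE scaling (log2 0.39, adjusted p = 0.0485). With each library left out in turn it was between log2 0.12 and 0.47. Of the exonic bases of Ccnd2, 740 overlap antisense genes.

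Of 19 other genes of the step from G1 to S phase 13 rose and 2 fell in floxed TAC hearts. Over all genes 27.9% rose and 14.5% fell, and the median of the list was log2 0.66. In cKO hearts 3 rose and 0 fell, with a median of log2 0.28. Without floxed sham 1 or without floxed TAC 2 the floxed TAC count was 7 higher, and without floxed TAC 1 it was 8. Cyclin A2 (Ccna2) rose in both, from 3.0 to 31.0 CPM in floxed hearts (log2 3.01) and from 1.68 to 13.4 CPM in cKO hearts (log2 2.44, adjusted p = 0.00936). E2f1 and E2f2, transcription factors of S phase, also rose in both, by log2 1.26 and 1.63 in floxed and by 1.37 and 1.35 in cKO hearts. Without the 3 libraries with atrial transcripts none of these 3 cKO rises passed (adjusted p of 0.084 for Ccna2, 0.152 for E2f1 and 0.25 for E2f2), nor without cKO sham 2 alone (0.0592, 0.0775 and 0.153). E2f1 also failed without cKO sham 1 (0.0912) or cKO TAC 2 (0.0839), and E2f2 passed with 1 library less only where that was cKO TAC 1.

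The inhibitor Cdkn1a rose by log2 2.59 in floxed hearts, and Cdkn1c, an inhibitor of the same family, fell from 32.8 to 6.31 CPM with an interaction of 1.53 (adjusted p = 0.00804). Rbl2, a relative of the retinoblastoma protein, fell by 0.66 with an interaction of 0.60. Ccnd3, the remaining D-type cyclin, and Cdk4 rose in floxed hearts (log2 0.41 and 0.59), and Cdk4 was lower in cKO than in floxed TAC hearts (log2 -0.52, adjusted p = 0.0191). Cdk6 did not pass in any comparison (log2 0.43 in floxed TAC hearts). The median of this list among TAC hearts was log2 -0.28 between genotypes, with 2 genes higher (Cdkn1c and Rbl2) and 3 lower (Ccna2, E2f2 and Cdk4) in cKO hearts. Without floxed TAC 1, floxed TAC 2 or cKO TAC 1 that count was 0 lower, and without cKO TAC 2 it was 6 lower.

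Nras, a small GTPase that passes growth factor signals to the MAP kinases, rose less than Myc or Igf2bp2, with replicates of floxed hearts close together. It was at 43.2 and 42.6 CPM in floxed sham, 80.8 and 76.0 CPM in floxed TAC, 50.3 and 47.8 CPM in cKO sham and 44.1 and 56.3 CPM in cKO TAC hearts. The floxed TAC libraries were above all others, and the cKO TAC libraries lay on both sides of the cKO sham libraries. Nras rose 1.83-fold in floxed hearts (log2 0.85 ± 0.13, adjusted p = 0.000845) and passed in all 21 alternatives. In cKO hearts the difference was log2 0.02 (95% interval -0.28 to 0.32), and the interval excludes a rise of the size seen in floxed hearts.

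Among TAC hearts Nras was lower in cKO than in floxed hearts (log2 -0.64 ± 0.13, adjusted p = 0.00893), which did not pass without floxed TAC 1 (adjusted p = 0.0592) or without cKO TAC 1 (adjusted p = 0.0534). The interaction was log2 -0.83 ± 0.19 (adjusted p = 0.0222), between -0.66 and -1.01 with each library left out. It did not pass without floxed sham 1 (0.0892), floxed sham 2 (0.0791), floxed TAC 1 (0.0756), floxed TAC 2 (0.0597) or cKO sham 1 (0.0575).

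Its relative Hras, listed as Hras1, was at log2 0.36 in floxed TAC hearts and did not pass (adjusted p = 0.0679). Of 19 other genes of the Ras and MAP kinase pathway 7 rose and 2 fell in floxed TAC hearts. Over all genes 27.9% rose and 14.5% fell, and the median of the list was log2 0.21. The MAP kinase phosphatases Dusp4 and Dusp6 and the inhibitor Spry4, which MAP kinase signalling is known to induce, rose by log2 1.49, 1.15 and 1.09. The GTPase Rras and the kinase Map2k1 rose by log2 0.84 and 0.71, with interactions of -0.76 (adjusted p = 0.0178) and -0.66 (adjusted p = 0.0471). In cKO hearts 0 of the 19 passed, with 2 at an unadjusted p under 0.05 and a median of log2 0.03. Among TAC hearts 4 were lower in cKO (Dusp4, Dusp6, Rras and Map2k1) and 0 higher, with log2 -1.60 for Dusp4 (adjusted p = 0.0096). That count was 1 without floxed TAC 2 or without cKO TAC 1. The floxed TAC count was 3 higher without floxed TAC 2, 4 without floxed sham 1 or floxed sham 2, and 6 higher and 3 lower with RLE scaling.

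Dicer1 cuts precursors into mature microRNAs and is itself a known let-7 target. It was at 41.1 and 44.1 CPM in floxed sham, 54.6 and 51.4 CPM in floxed TAC, 37.1 and 42.6 CPM in cKO sham and 50.4 and 50.7 CPM in cKO TAC hearts. In both genotypes the TAC values were above the sham values without overlap. The differences were log2 0.31 ± 0.12 (adjusted p = 0.0652) in floxed and log2 0.34 ± 0.12 (adjusted p = 0.203) in cKO hearts, and neither passed. The interaction was log2 0.03 (95% interval -0.36 to 0.41).

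Of 17 other genes of microRNA processing and action 3 were lower in floxed TAC hearts and 0 higher, beside 14.5% and 27.9% of all genes. Drosha, which makes the first cut of microRNA processing, fell by 0.65 on the log2 scale in floxed hearts (adjusted p = 0.00133), and in cKO hearts it was at log2 -0.49 (adjusted p = 0.0528). Ago4 (listed as Eif2c4) and Zcchc11, an enzyme that adds uridines to the let-7 precursor when Lin28 is bound, also fell, by 0.61 and 0.42. Both were higher in cKO than in floxed TAC hearts (log2 0.51 and 0.48, adjusted p = 0.0417 and 0.0292). Ago2, listed as Eif2c2, did not pass in any comparison (log2 0.22 in floxed TAC hearts). Neither Ago4 nor Zcchc11 passed between TAC hearts when any 1 of the 4 floxed or 2 cKO TAC libraries was left out. In floxed TAC hearts 1 gene of the list was lower without floxed sham 1, floxed sham 2 or floxed TAC 1. In cKO hearts 0 of 17 passed, with 2 at an unadjusted p under 0.05.

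Other known let-7 targets were read from a list of 24 genes, of which 19 were analysed and 5, Lin28b among them, were not. In floxed TAC hearts 5 of the 19 were higher and 2 lower, beside 27.9% and 14.5% of all genes. Their median was log2 0.24, beside 0.14 over all genes. The matricellular protein gene Thbs1 rose from 4.47 to 250 CPM (log2 5.52 ± 0.57) and the receptor Tgfbr1 from 24.0 to 48.5 CPM (log2 0.99). Pik3ip1, an inhibitor of PI3 kinase, fell from 66.1 to 25.4 CPM (log2 -1.37), and the kinase Akt2 fell by 0.60. The transcription factors Arid3a and E2f2 also rose. The interactions of Thbs1, Tgfbr1 and Pik3ip1 passed, at log2 -3.43, -0.90 and 1.46.

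Hmga2, a classic let-7 target of embryonic tissue, was at a mean of 4.48 CPM in floxed sham and 5.46 CPM in floxed TAC hearts and did not pass (log2 0.24). Among TAC hearts the median of the 19 between genotypes was log2 -0.11, beside -0.10 over all genes. In cKO hearts 5 were lower (Thbs1, Tgfbr1, Arid3a and E2f2 among them) and 1 higher (Pik3ip1), beside 16.5% and 8.39% of all genes. That count was 1 lower without floxed TAC 1 or without cKO TAC 1, and 2 without floxed TAC 2. In cKO hearts 1 of the 19 rose, E2f2, and between genotypes in sham hearts 0 passed, with 2 at an unadjusted p under 0.05. With RLE scaling 5 were higher and 4 lower in floxed TAC hearts.

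**Figure D3:**
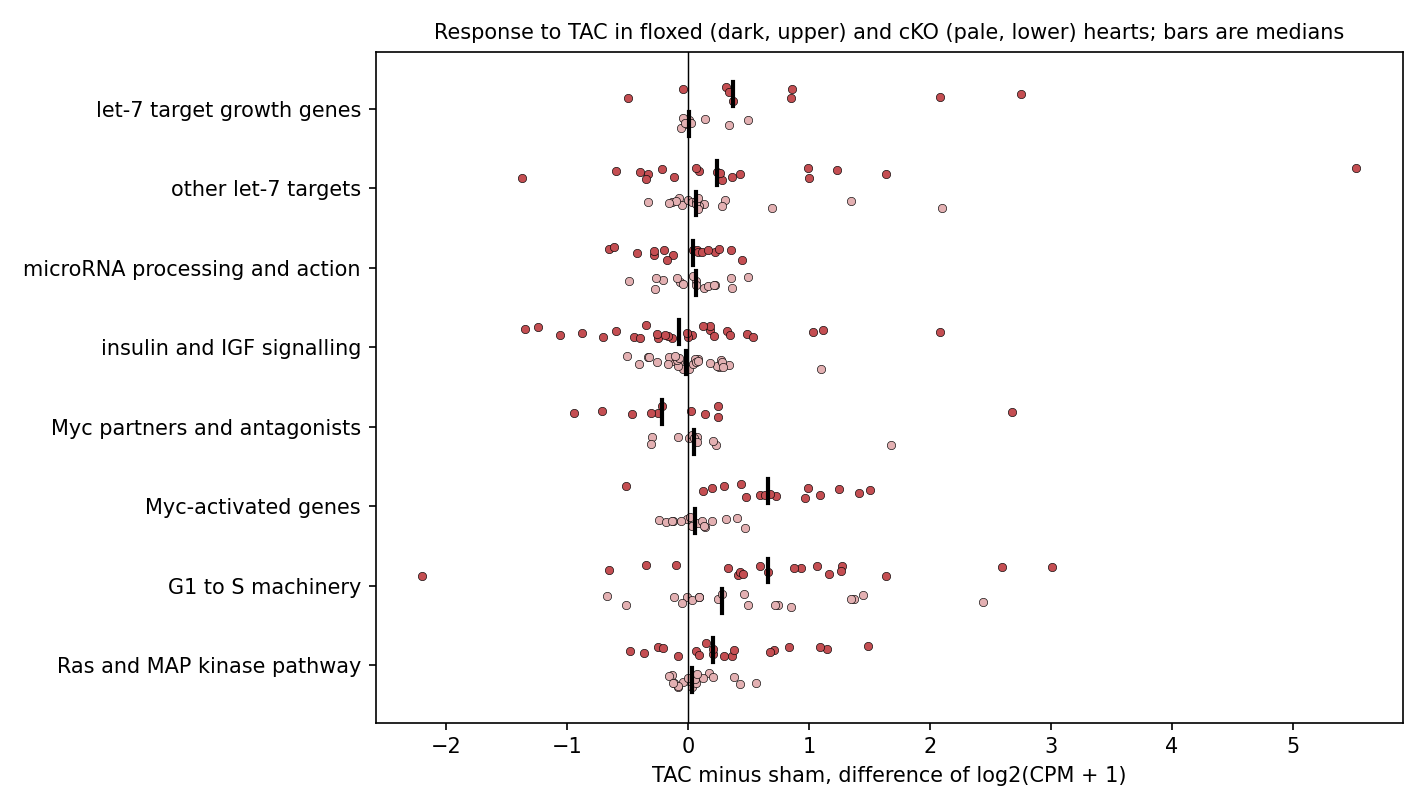
Each point is 1 gene and gives TAC minus sham as a difference of log2(CPM + 1), in floxed hearts (dark, upper row) and cKO hearts (pale, lower row), for the growth genes and 7 lists of related genes, with bars for medians. The median of the Myc-activated genes is 0.66 in floxed and 0.05 in cKO hearts, and that of the growth genes 0.37 and 0.00.

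All tested genes with a 3′ UTR were also grouped by their let-7 seed matches, a grouping that uses no measured value. In sham hearts the median difference of cKO against floxed was log2 0.01 for the 443 genes with an 8mer and 0.03 for the 9951 genes without a match. In TAC hearts it was -0.11 for both. In cKO against floxed TAC hearts 17.2% of the genes with an 8mer were lower and 8.13% higher, beside 17.5% and 8.64% of the genes without a match. For TAC in floxed hearts the medians were log2 0.17 and 0.15. Genes with an 8mer had longer 3′ UTRs, with a median of 2518 bases against 1028 for those without a match. No test was run on these groups, since genes are not replicates.

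**Figure D4:**
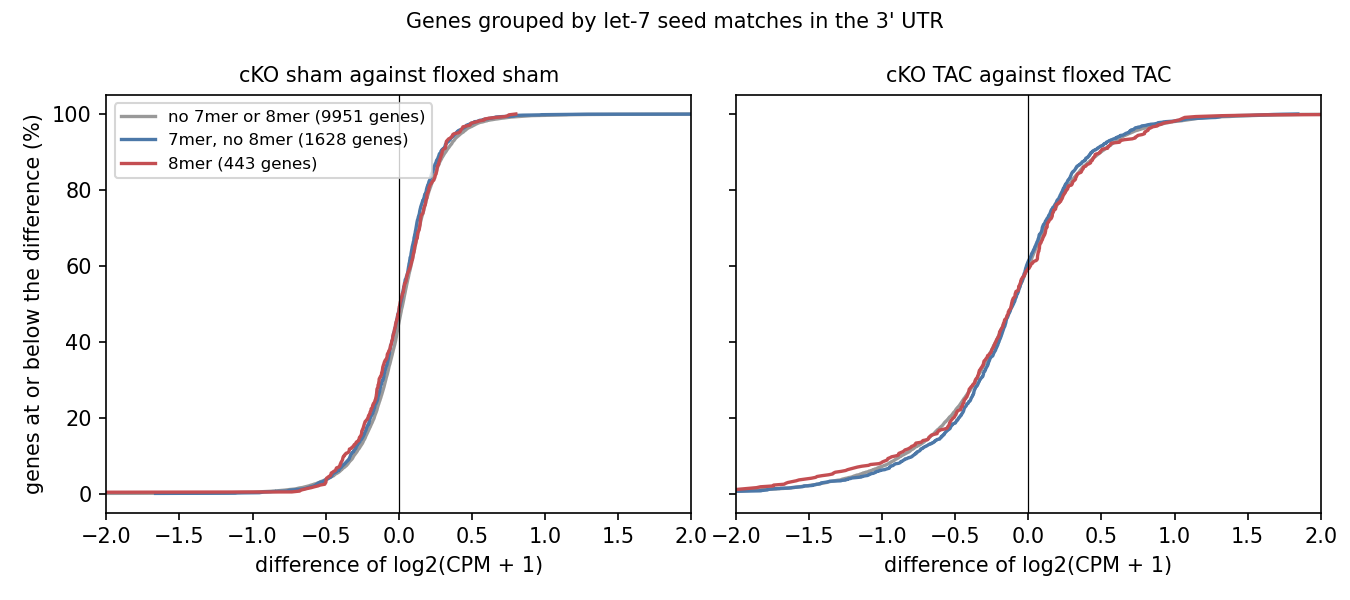
Lines give the share of genes at or below each difference of log2(CPM + 1) between cKO and floxed hearts after sham (left) and after TAC (right), for genes with an 8mer, with a 7mer and no 8mer, and with no match to the let-7 seed. The 3 lines run close together in both panels, with medians of -0.11, -0.10 and -0.11 after TAC.

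Per kilobase of exon, the growth genes spanned a wide range of levels in floxed sham hearts. Ccnd1 was at 31.0 ± 4.14 CPM per kilobase (SD, n = 2), Ccnd2 at 21.8 ± 0.40, Insr at 11.8 ± 0.26 and Nras at 8.05 ± 0.08. Lower levels were those of Dicer1 at 2.54 ± 0.13, Irs2 at 1.65 ± 0.33, Igf1r at 1.58 ± 0.08, Myc at 1.29 ± 0.40 and Igf2bp2 at 0.43 ± 0.16 CPM per kilobase. Irs2, Igf1r and Myc, next to each other in this order, did not differ from one another beyond their spread. In floxed TAC hearts Myc was at 11.0 ± 4.17 and Igf2bp2 at 2.2 ± 0.29 CPM per kilobase, so that Myc then stood above Insr (8.52 ± 2.66) in mean, within their spread. These levels rest on the merged exons of GENCODE M21, which may differ from the exons that the authors counted.

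Cell type markers also differed between the groups. Summed over 13 macrophage markers, the level was 445 and 452 CPM in floxed sham, 2509 and 2227 CPM in floxed TAC, 474 and 364 CPM in cKO sham and 793 and 1074 CPM in cKO TAC hearts. All 13 rose in floxed TAC hearts, beside 27.9% of all genes, and all 13 were lower in cKO than in floxed TAC hearts, beside 16.5%. The sum of 10 fibroblast markers was 1674 and 1803 CPM, 12140 and 15633 CPM, 1799 and 2039 CPM and 3606 and 5970 CPM in the same order of groups. In floxed TAC hearts 7 of 10 were higher and 1, Fbln1, lower, and 5 of 10 were lower in cKO than in floxed TAC hearts. Most of the floxed TAC sum came from Col1a1 (3413 and 4100 CPM), Col1a2 (2732 and 3247), Col3a1 (3445 and 5183) and Postn (1515 and 1698). Dcn was at 637 and 610 CPM in floxed sham and at 598 and 866 CPM in floxed TAC hearts. The sum of 11 markers of mitotic cells was 18.0 and 27.0 CPM, 222 and 229 CPM, 18.0 and 11.2 CPM and 85.9 and 123 CPM in that order of groups.

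Floxed TAC was thus the group with the highest sums of these 3 lists, as it was for Myc, Igf2bp2, Nras and Igf1r. In cKO TAC against cKO sham hearts 10 of 13 macrophage, 4 of 10 fibroblast and 10 of 11 mitotic markers were higher, beside 2.09% of all genes. Cardiomyocyte markers summed to 97529 and 88205 CPM in floxed sham, 70820 and 67484 CPM in floxed TAC, 83570 and 87193 CPM in cKO sham and 93770 and 81515 CPM in cKO TAC hearts. Of these 12 markers 2 were higher and 6 lower in floxed TAC hearts, beside 27.9% and 14.5% of all genes. In cKO against floxed TAC hearts 7 were higher and 1 lower, beside 8.39% and 16.5%. Myh6 was at 31525 and 21059 CPM in floxed sham and 8565 and 10531 CPM in floxed TAC hearts. Actc1 went the other way, from 13022 and 15703 to 28204 and 26450 CPM. Of 9 smooth muscle and pericyte markers 5 were higher and 2, Rgs5 and Kcnj8, lower in floxed TAC hearts, and most of their sum of 7660 and 8149 CPM there came from Des (6564 and 7076 CPM), which heart muscle also expresses. Endothelial markers were at 1193 to 1806 CPM over all libraries with 0 of 10 past the threshold in any comparison. No marker of these lists was at 0 in both libraries of a group. In such bulk tissue fewer cells of a type and less RNA per cell cannot be told apart, and the part of cell composition in the growth gene results was not tested.

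**Figure D5:**
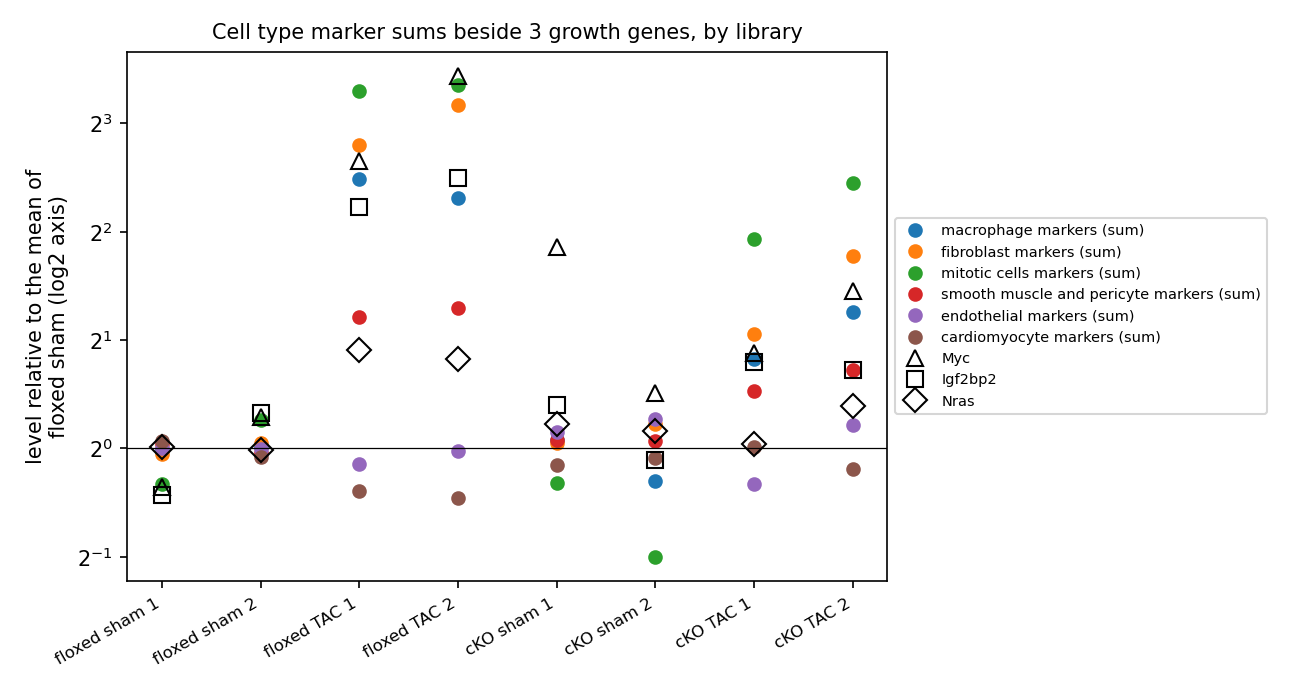
For each of the 8 libraries, filled circles give the summed CPM of 6 cell type marker lists and open symbols the CPM of Myc, Igf2bp2 and Nras, each divided by its mean in floxed sham hearts, on a log2 axis. Macrophage, fibroblast and mitotic marker sums and the 3 growth genes are highest in the 2 floxed TAC libraries.

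For each growth gene that rose in floxed TAC hearts, the genes with the most similar pattern were taken by Pearson's r of log2(CPM + 1) over the 8 libraries, as a description with no test. Myc was closest to AI846148 (r = 0.992) and Ncbp1 (r = 0.983), Igf2bp2 to Slc7a6 (r = 0.990) and Ada (r = 0.988), Igf1r to Ndst2 and Umps (r = 0.987 and 0.986) and Nras to Ctxn1 and Ist1 (r = 0.996 and 0.995). Ctxn1 was at 0.130 and 0.180 CPM in floxed sham hearts, 3 reads or less, and at 4.02 and 3.72 CPM in floxed TAC hearts. These correlations share the 4 groups and the library totals, and they were the highest among 13120 genes.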

How the data were processed

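The authors deposited 1 table of CPM for 13439 genes in 8 left ventricular libraries. The submitters' processing notes name Bowtie2 2.2.6, HTSeq, DESeq2 and mm10. Annotation, counting and strand settings: not given in the sources used here. Per the labels, the libraries were stranded TruSeq mRNA. Dividing each CPM by the value of 1 read gave whole reads for 100% of values (tolerance 0.02 reads), on which edgeR called 5559 genes for TAC in floxed hearts, and 0.153% to 0.201% of a library belonged to genes not listed.

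The main test was limma 3.58.1 (R 4.3.3), with a trended variance on log2(CPM + 1), 1 coefficient per group and all 8 libraries, for the 13120 genes that reached 1 CPM in 2 or more libraries. Benjamini-Hochberg adjusted p under 0.05 was the threshold. The script was tested on simulated data. Alternatives were pseudocounts of 0.1 and 0.5, no filter, a filter of 5 CPM, RLE and TMM scaling, edgeR 4.0.16, DESeq2 1.42.0 and limma-voom on the recovered reads, the compared groups alone, each library left out, a replicate block and, added after the data were seen, a crossed block and leaving out the 3 libraries with atrial transcripts.

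The members and lists were chosen with earlier results of these data known. Named from each list were up to 4 genes with the largest change in floxed TAC hearts, those past the threshold between genotypes or in the interaction, and partners of members. Of 127 genes in the 7 lists 121 were analysed, and 5 were found under a synonym. Gene models and seed matches came from GENCODE M21 (mm10) and microRNA sequences from RefSeq GRCm38.p6. Some genes that this rule names are not reported here.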

Additional observations from a re-analysis of the deposited data

Results flagged for a closer look

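For 25 of the growth genes and the genes of the 7 related lists, the response to TAC differed between the genotypes, in that the interaction passed the threshold by limma. Among the growth genes these were Myc (log2 -2.78), Igf2bp2 (-1.59) and Nras (-0.83). Of the known let-7 targets outside that set, Thbs1 (-3.43) and Tgfbr1 (-0.90) had negative and Pik3ip1 (1.46) had positive values. Negative values were also found for the Myc-activated genes Odc1 (-1.42), Nop58 (-1.12), Srm (-1.11), Fbl (-0.85), Eif4a1 (-0.78), Ldha (-0.65) and Npm1 (-0.62). In insulin and IGF signalling Igf1 (-0.98), Shc1 (-0.93) and Ptpn1 (-0.75) were negative, and Tsc2 (0.60), Mtor (0.72), Grb14 (0.85), Slc2a4 (0.92) and Foxo3 (1.13) positive. Rras (-0.76) and Map2k1 (-0.66) of the Ras pathway were negative, and the cell cycle genes Rbl2 (0.60) and Cdkn1c (1.53) positive. A negative value means a smaller rise or a larger fall in cKO hearts. Of the 22 values outside the growth genes 0 passed with floxed sham 1 left out, 3 with floxed sham 2 left out and 5 with either floxed TAC library left out. Leaving out the first or second cKO sham library left 14 or 15, leaving out the first or second cKO TAC library left 11 or 22, and 13 were left with the 3 libraries with atrial transcripts removed, whereas 18 to 22 passed under the other pseudocounts, filters, scalings and tools.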

How the results depend on the processing

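Across 21 alternatives, 881 of 936 recomputed values of the growth genes stayed on their side of the threshold, 27 lost it, 28 gained it and 0 reversed among called values. Fitting only the groups compared raised the growth genes past the threshold for TAC in floxed hearts from 4 to 7, and all genes from 5562 to 6354. With 1 library left out their number was 3 to 5 for TAC in floxed hearts, 0 to 0 in cKO hearts and between sham hearts, 1 to 5 between TAC hearts and 0 to 4 for the interaction, with 0 without floxed sham 1 or without floxed TAC 2. Over all genes the ranges were 3618 to 5919, 71 to 615, 1 to 15, 1400 to 3622 and 254 to 2919, against 5562, 332, 7, 3263 and 1851. For TAC in cKO hearts 688 genes passed by DESeq2, 133 by limma-voom, 45 with only the groups compared and 53 without the 3 libraries with atrial transcripts. Between sham hearts 49 passed by DESeq2 and 2 by limma-voom. With RLE scaling the genes past the threshold for TAC in floxed hearts were 2978 higher and 2598 lower, against 3655 and 1907, between TAC hearts 1421 and 1751, against 1101 and 2162, and for the interaction 843 and 916, against 647 and 1204. A lone library left in a group was assumed to vary like the other groups. Of 119 values of related genes past the threshold, 44 passed in every alternative and 0 reversed. The cause was not tested.

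Whether replicate numbers pair the samples is not known. Replicate 1 deviations correlated between groups by -0.105 to 0.0812 over genes, which cannot exclude a batch that touches few genes. The second libraries of floxed sham, cKO sham and cKO TAC shared atrial transcripts (Myl7 at 133, 65.0 and 66.2 CPM). That of floxed TAC did not (0.511 CPM). With the replicate block the growth genes past the threshold numbered 4, 0, 0, 4 and 3 and all genes 5573, 309, 8, 3289 and 1873, so no call on a growth gene changed. With the numbers of floxed TAC crossed in the block, 5, 0, 0, 5 and 3 growth genes and 5596, 309, 8, 3286 and 1924 genes passed.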
